A study of Danio rerio with 9 samples.

Results

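The genes described here carry out antigen presentation by major histocompatibility complex (MHC) class I molecules, measured in zebrafish liver by RNA sequencing. They were chosen by name, with earlier results of these same libraries known, as the class I heavy chain genes mhc1uba, mhc1uca, mhc1uka and mhc1ula, the light chain gene b2m, the peptide transporter genes tap1 and tap2a, and the proteasome genes psmb8a, psmb9a and psmb13a. The 10 names led to 8 of the 33716 gene rows, and all 8 passed the filter on low values. Of the names, 6 matched a row by symbol and psmb8a and psmb9a by an older symbol. The current RefSeq name mhc1uka lists mhc1uca as its older name, so 1 row, called mhc1uca below, answers to both, and which of these genes its reads came from is uncertain. Mhc1ula matched no row and was not analysed here. Because the choice used these contrasts, the values of the 8 genes are given as a description, with no test.

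The 9 libraries form 3 groups of 3. Wild type is named AB in the sample titles and was 3.5 months old. The focad null group is labelled as maternal-zygotic for focad-/-, the gene of focadhesin, and no age is given for it in the labels used here. The pdia6 null group is maternal-zygotic for pdia6-/-, a protein disulfide isomerase gene of the endoplasmic reticulum (ER), at 3.5 months. Maternal-zygotic fish lack the gene product in the egg as well as in their own genome. No line is named for the null groups, so genotype and line background cannot be told apart, and the comparison of each null with wild type shares the same 3 wild-type libraries. The labels do not say whether libraries of a group are separate fish, so each p-value reflects library-to-library spread, part of which may be technical.

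A class I molecule is a heavy chain bound to beta-2-microglobulin, the b2m product, and it shows peptides from inside the cell to CD8+ T cells. The proteasome cuts the peptides, the TAP transporter, a pair of tap gene products, moves them into the ER, and tapasin, the tapbp product, loads them with the chaperones calreticulin and Pdia3. Interferon raises most of these genes and replaces catalytic subunits of the proteasome with inducible ones. Zebrafish heavy chains fall into lineages named by the letter after mhc1, of which U holds the classical genes and Z and L others, and zebrafish are known to carry core MHC haplotypes with different sets of U genes, while Z and L genes lie elsewhere.

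Libraries held 46.1 to 54.5 M reads assigned to genes. Levels below are FPKM (reads scaled by gene length and depth) rescaled between libraries, and differences are in mean log2(FPKM + 1), which understates changes of low genes. Hepatocyte marker genes summed to between 143644 and 180033 FPKM in every library. Transcripts of the targeted genes did not separate all libraries by label: the library labelled focad null replicate 2 had 0.528 FPKM of focad, against 0.521 to 1.13 in wild type, and the library labelled pdia6 null replicate 1 had 44.3 FPKM of pdia6, against 14.2 to 265.1 in wild type. Several values below are also given with one of them left out. The library labelled focad null replicate 2 also held the highest level of fabp2, an intestinal fatty acid binding protein gene, at 3640 FPKM, against 237 and 71.1 in the others of its group and 2.60 to 6.05 in wild type.

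The classical U heavy chains were where the groups parted most. Mhc1uba (ENSDARG00000075963) reached 306, 920 and 379 FPKM in replicates 1 to 3 of wild type. The focad null libraries held 0.0727, 0.0811 and 0.0157 FPKM of it, and the pdia6 null libraries 0.0164, 0.0317 and 0.105. Wild type was thus far above the other 6 libraries, which overlapped each other, and the libraries labelled focad null replicate 2 and pdia6 null replicate 1 lay with the nulls. In reads this was 81985 over the 3 wild-type libraries, 10 over the focad null group and 9 over the pdia6 null group. Scaled for depth, the wild-type sum was 9387-fold higher than focad null (95% interval 5104 to 19576) and 10386-fold higher than pdia6 null (5471 to 22715), intervals that cover counting error only. The log2 difference was -8.81 (SE 0.36) for focad null and -8.82 (SE 0.36) for pdia6 null against wild type.

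Mhc1uca (ENSDARG00000092731) was lower in wild type than mhc1uba but had the same distribution over the groups. Its wild-type levels were 10.8, 14.1 and 7.58 FPKM, from 631, 708 and 443 reads. A single library of the 6 labelled null, focad null replicate 2, held 1 read, and the other 5 held 0. The wild-type read sum of 1782 was 2040-fold higher than that of focad null (95% interval 366 to 80633), and pdia6 null was at least 677-fold lower, taking 3 reads over the group as the limit that a count of 0 allows. The log2 differences were -3.52 (SE 0.21) and -3.53 (SE 0.21). Within wild type, mhc1uba was 28.3, 65.5 and 49.9 times as high as mhc1uca per length. The third named gene of the lineage, mhc1uma, had no read in any library. Paralogous class I genes are alike in sequence, and the counting used by the authors could split or drop reads between them.

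**Figure D1:**
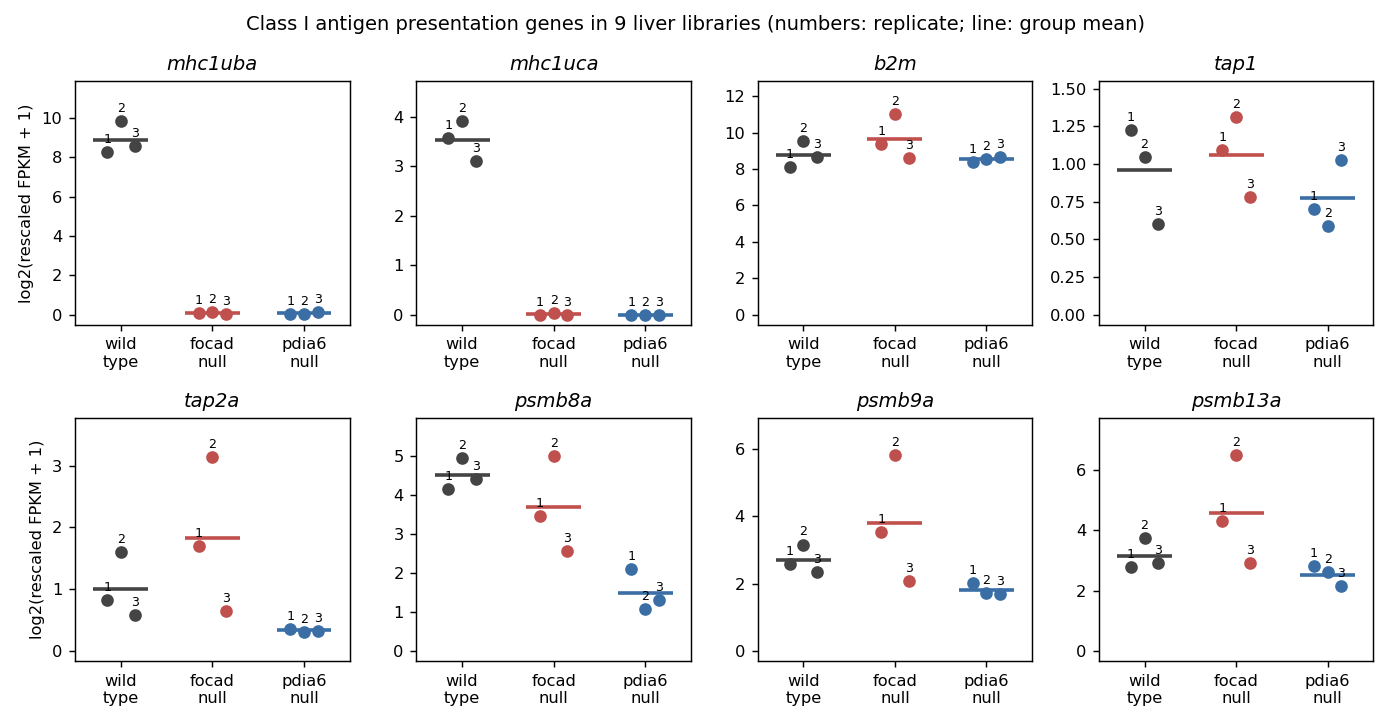
Level of each of the 8 gene rows, as log2(rescaled FPKM + 1) on the vertical axis, in the 9 libraries, with a panel per gene, points numbered by replicate and a line at the group mean. Mhc1uba and mhc1uca sit near 0 in all 6 libraries labelled null. The ranges of b2m, tap1, tap2a, psmb8a, psmb9a and psmb13a in the focad null group overlap wild type, and replicate 2 of that group is highest in these 6 panels.

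Over the 8 gene rows, all focad null libraries lay below all wild-type libraries for 2 (mhc1uba and mhc1uca) and all pdia6 null libraries for 5 (those, tap2a, psmb8a and psmb9a), against 9.64% and 11.0% of the 13290 genes that passed the filter. The median log2 difference of the 8 rows was 0.46 for focad null and -0.78 for pdia6 null against wild type, and 1.32 for focad null against pdia6 null, beside medians over all genes of 0.01, -0.01 and 0.01. With focad null replicate 2 left out, the 8-row medians of that group were 0.04 against wild type and 0.65 against pdia6 null. Since the names were chosen with these contrasts known, and mhc1uba and mhc1uca passed the filter through wild type alone, nothing is read from these counts.

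The order of the levels also differed by group. In wild type the order by mean was mhc1uba (535 ± 335 FPKM, SD, n = 3), b2m (474 ± 248), psmb8a (22.4 ± 6.8), mhc1uca (10.8 ± 3.2), psmb13a (8.21 ± 3.51), psmb9a (5.73 ± 2.00), tap2a (1.11 ± 0.83) and tap1 (0.973 ± 0.418). The neighbours mhc1uba and b2m overlapped there, as did mhc1uca with psmb13a, psmb13a with psmb9a, and tap2a with tap1. In the pdia6 null group b2m (370 ± 38 FPKM, SD, n = 3) came first, then psmb13a (4.86 ± 1.28), psmb9a (2.54 ± 0.43), psmb8a (1.98 ± 1.19), tap1 (0.722 ± 0.280) and tap2a (0.262 ± 0.021), and only psmb9a and psmb8a overlapped as neighbours in this series. In the focad null group b2m (1039 ± 898 FPKM, SD, n = 3) was followed by psmb13a (38.0 ± 44.5), psmb9a (23.1 ± 28.3), psmb8a (15.4 ± 13.9), tap2a (3.55 ± 3.79) and tap1 (1.11 ± 0.38), whose neighbours from psmb13a downward overlapped. Overlap here is of the group ranges. Within each wild-type library mhc1uca was above psmb13a and psmb13a above psmb9a. Within each focad null library psmb13a was above psmb9a and psmb8a above tap2a. The other overlapping neighbours did not keep the same order in all libraries of their group. Of the 3 proteasome genes psmb8a was the highest in wild type, and in both null groups it was the lowest by mean. With focad null replicate 2 left out, the focad null means were 12.6 FPKM for psmb13a, 7.53 for psmb8a and 6.88 for psmb9a, so that psmb9a was then the lowest there.

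Among the rows with a name, the U lineage was near 0 in the null libraries, and most of the heavy chain level left was of the Z lineage. Reads of a U gene that has no such row would not be counted here. Of the 21 heavy chain rows with a name, 16 had a read in at least 1 library. The U lineage made up 60.2%, 71.7% and 57.7% of their summed FPKM in wild type, and at most 0.113% in any library labelled null. The Z lineage made up 39.1%, 28.2% and 42% in wild type and 98% to 99.3% in the 6 others. The summed level of all named heavy chains was 526.5 to 1303 FPKM in wild type, 124.9 to 429.7 in focad null and 93.3 to 157 in pdia6 null. Neither null group overlapped wild type, but this sum includes mhc1uba and mhc1uca, which were chosen with these contrasts known. The Z lineage alone summed to 206 to 366.8 FPKM in wild type, 123.4 to 426.7 in focad null and 91.5 to 154.6 in pdia6 null. In that sum focad null overlapped wild type through replicate 2, and pdia6 null lay below it. In a bulk sample, fewer cells of a type and less RNA per cell cannot be told apart.

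Mhc1zba was the most abundant named heavy chain of the null groups. Its level was 184.5, 329 and 250.3 FPKM in wild type, 115, 413 and 107 in focad null and 132, 120 and 68.5 in pdia6 null. The pdia6 null libraries all lay below wild type and the focad null libraries overlapped it through replicate 2, the highest of all 9, while the other 2 lay below it. Neither difference passed the limma test (log2 difference -0.52, SE 0.54, adjusted p = 0.713, and -1.26, SE 0.54, adjusted p = 0.385). With focad null replicate 2 left out, the focad null difference of mhc1zba was -1.15 (limma adjusted p = 0.225). Mhc1zaa measured 9.12, 28.8 and 22.0 FPKM in wild type, 9.15, 4.20 and 5.93 in focad null and 8.71, 2.68 and 9.33 in pdia6 null, which overlap, and its log2 differences of -1.42 and -1.41 did not pass either (limma adjusted p = 0.264 and 0.309).

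Mhc1zja, another Z lineage gene, was lower in both null groups. Its level was 1.04, 1.29 and 1.50 FPKM in wild type, 0.161, 0.224 and 0.0869 in focad null and 0.109, 0.281 and 0.329 in pdia6 null, so that no null library reached wild type. Its reads summed to 183, 25 and 39 over the groups. It fell by 0.97 on the log2 scale in focad null (SE 0.16, limma adjusted p = 0.0232) and by 0.88 in pdia6 null (SE 0.16, limma adjusted p = 0.0433), and its read sum scaled for depth was 8.38-fold and 5.35-fold higher in wild type. It passed the filter on low values only through wild type, so these calls depend on the group that is high, and in the fit with no filter the adjusted p was 0.0166 and 0.0292. Left out in turn, each of the 3 wild-type libraries took it below that filter, and of the 6 other fits it passed in 5 for focad null, where replicate 1 of that group decided it (adjusted p = 0.124 without it). For pdia6 null it passed in 1 of 6, the fit without the library labelled focad null replicate 2, with adjusted p from 0.0284 to 0.130 over all alternatives. With both libraries in the wild-type range of their targeted transcript left out, the adjusted p for pdia6 null was 0.0773. The adjusted p that the authors deposited for mhc1zja was 0.0816 for focad null and 0.0485 for pdia6 null.

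The other heavy chains at 1 FPKM or more in a group were not called in either comparison with wild type. Mhc1zea ranged from 4.03 to 6.45 FPKM in wild type, 3.23 to 7.36 in focad null and 4.77 to 8.65 in pdia6 null, and mhc1zda (2.04 to 3.12 FPKM in wild type) and the L lineage gene mhc1laa (1.50 to 2.77) overlapped in the same way. Mhc1zka varied within wild type itself, at 2.41, 0.0430 and 0.0371 FPKM, while the focad null libraries held 0.543 to 1.09 and the pdia6 null libraries 0.847 to 3.02. Over this list of 7 tested genes beside mhc1uba and mhc1uca, 1, mhc1zja, was called lower in each null group. Of all genes tested, 1.56% and 1.23% were called in either direction. Since mhc1zja passed the filter only through wild type, nothing is read from this count. The medians of the log2 difference over the list were -0.42 and -0.24.

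**Figure D2:**
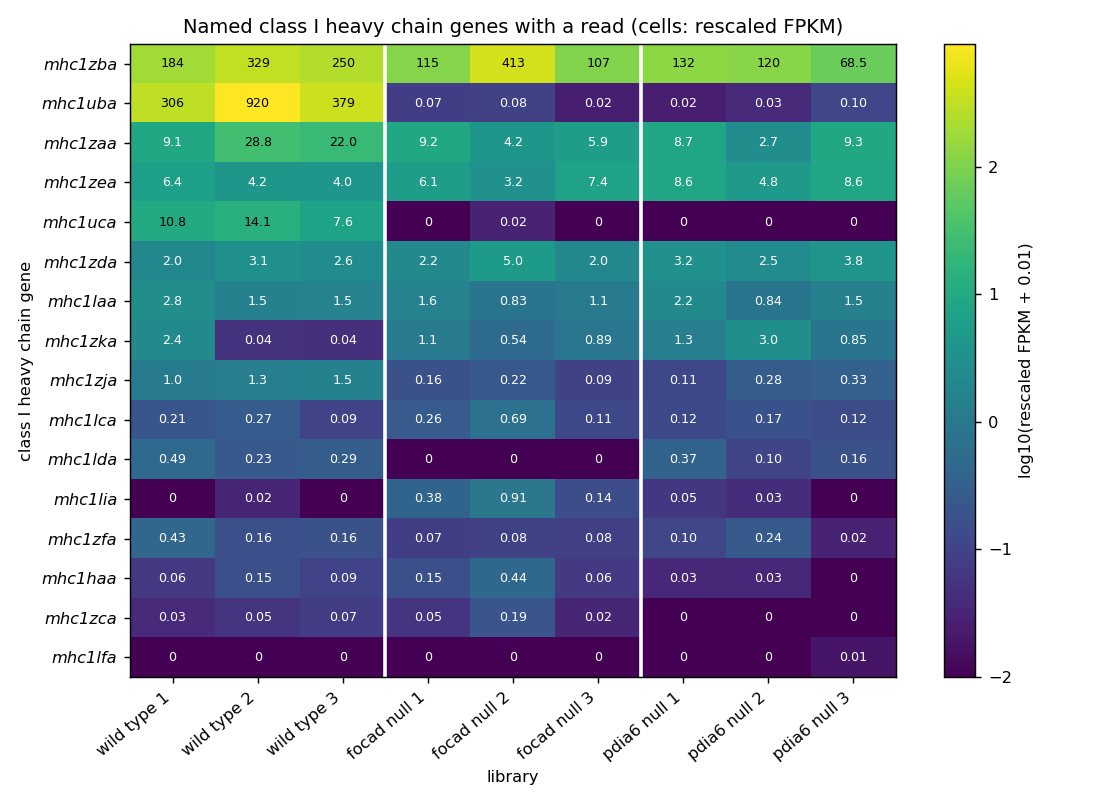
Rescaled FPKM of the 16 named class I heavy chain genes with a read (rows, ordered by mean) in the 9 libraries (columns), printed in each cell and coloured by log10(FPKM + 0.01). The rows of mhc1uba and mhc1uca are dark in all 6 libraries labelled null, and mhc1zba is bright in all 9.

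Some L lineage genes below the filter differed in reads between the null groups. They were picked out after their values were seen, and are given as reads without a test. Mhc1lda had 53, 22 and 31 reads in wild type, 0 in each focad null library, and 44, 12 and 18 in pdia6 null, so focad null was at least 40.5-fold lower than wild type and at least 24.8-fold lower than pdia6 null at 3 reads over the group. Mhc1lia had 1 read over wild type, 73 over focad null (24, 41 and 8 in replicates 1 to 3) and 5 over pdia6 null. Its summed reads scaled for depth gave a ratio of 63.8 between focad null and wild type (95% interval 11.1 to 2552, counting error only). These levels are below 1 FPKM in every library.

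Levels of the light chain gene b2m overlapped between the groups. B2m (ENSDARG00000053136) measured 272, 751 and 400.0 FPKM in wild type, 664, 2064 and 391 in focad null, and 328, 379 and 404 in pdia6 null. Replicate 2 of the focad null group was highest. The log2 difference was 0.90 (SE 0.60) for focad null against wild type, or 0.23 with that library left out, and -0.23 (SE 0.60) for pdia6 null. B2ml, a gene related to b2m, stood at 86.6 to 126 FPKM in wild type, 91.2 to 175 in focad null and 48.4 to 69.5 in pdia6 null. Its pdia6 null libraries thus lay below all others. The log2 difference of b2ml in pdia6 null against wild type, -0.92, did not pass (limma adjusted p = 0.251).

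Set against the light chain within each library, the named heavy chains were lower in the null groups. Their summed FPKM was 1.94, 1.73 and 1.67 times that of b2m in wild type, 0.205, 0.208 and 0.320 times in focad null, and 0.479, 0.355 and 0.231 times in pdia6 null. That sum includes mhc1uba and mhc1uca, which were chosen with these contrasts known, so nothing is read from its separation. Mhc1uba alone was 1.13, 1.22 and 0.947 times b2m in wild type. The ratio of mhc1zba to b2m was 0.438 to 0.678 in wild type, 0.173 to 0.274 in focad null and 0.170 to 0.403 in pdia6 null, so this ratio was lower without overlap in both null groups. B2m too was chosen with these contrasts known, so nothing is read from this separation either. A ratio within a library shows unequal levels and not which of them moved.

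**Figure D3:**
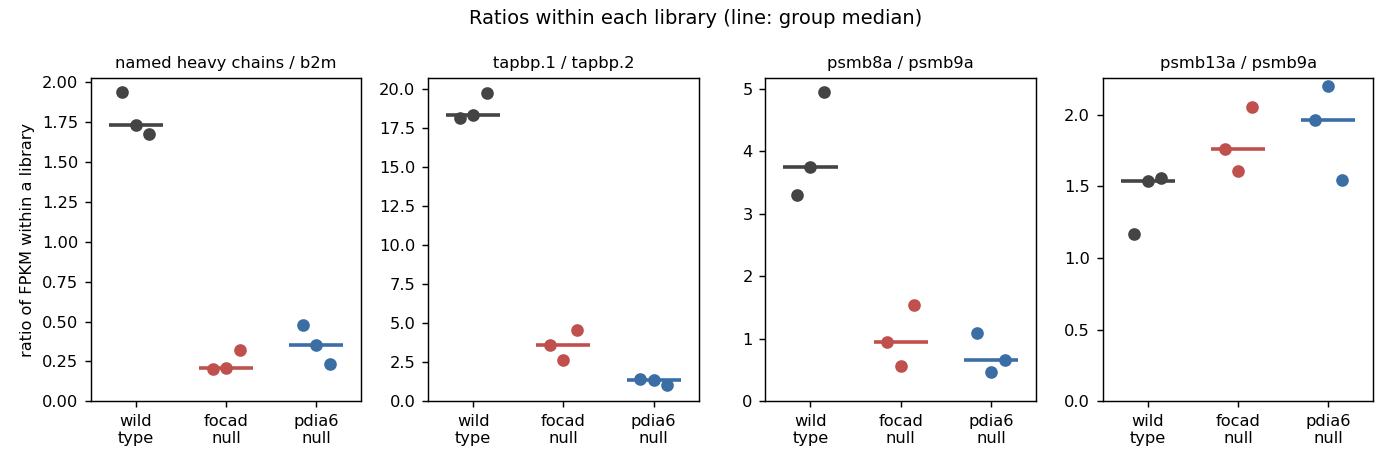
Ratios of rescaled FPKM within each library, on linear axes from 0, with a panel per ratio, a point per library and a line at the group median. All 3 wild-type libraries lie above the 6 others for summed named heavy chains over b2m, for tapbp.1 over tapbp.2 and for psmb8a over psmb9a, and all 3 focad null libraries lie above wild type for psmb13a over psmb9a. The heavy chain sum and the proteasome ratios hold genes that were chosen with these contrasts known.

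The peptide transporter genes were low in liver and varied by library. Tap1 (ENSDARG00000079766) measured 1.34, 1.06 and 0.517 FPKM in wild type, 1.14, 1.48 and 0.714 in focad null and 0.626, 0.502 and 1.04 in pdia6 null, with all groups overlapping. Its log2 differences from wild type were 0.10 (SE 0.23) and -0.19 (SE 0.23), and the first was -0.02 once the library labelled focad null replicate 2 was left out. Tap2a (ENSDARG00000036787), whose product pairs with Tap1, measured 0.776, 2.05 and 0.508 FPKM in wild type, 2.25, 7.82 and 0.571 in focad null and 0.287, 0.247 and 0.253 in pdia6 null. The pdia6 null libraries were below every other library, and those labelled focad null overlapped wild type. The log2 difference of tap2a was 0.82 (SE 0.55) for focad null, or 0.17 without replicate 2, and -0.67 (SE 0.55) for pdia6 null. Of the 2 other transporter genes tested, tap2t ranged from 1.36 to 2.71 FPKM over all 9 libraries and abcb9, a lysosomal relative of TAP, from 0.240 to 5.66, its highest value again in focad null replicate 2, and neither was called.

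Among the genes that load peptide in the ER, the tapasin gene tapbp.1 was lower in both null groups. Its level was 8.01, 14.2 and 5.31 FPKM in wild type, 1.67, 1.85 and 0.596 in focad null, and 1.26, 0.788 and 0.965 in pdia6 null. No library labelled null reached the wild-type range. Tapbp.1 fell by 2.05 on the log2 scale in focad null (SE 0.35, limma adjusted p = 0.0261) and by 2.26 in pdia6 null (SE 0.35, limma adjusted p = 0.0219), and did not differ between the null groups beyond their spread (0.20, SE 0.35, adjusted p = 0.796).

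The direction of tapbp.1 held in all 18 alternatives, with log2 differences from -2.80 to -1.72 and from -3.09 to -1.92, but its call was close to the threshold. With each library left out in turn it passed in 5 of 9 fits for either null group. For focad null it was lost without wild-type replicate 1 (adjusted p = 0.0693), wild-type replicate 2 (0.0583), focad null replicate 1 (0.0888) or pdia6 null replicate 2 (0.0504). For pdia6 null it was lost without wild-type replicate 2 (adjusted p = 0.0535) or pdia6 null replicate 1 (0.0611), replicate 2 (0.0967) or replicate 3 (0.0744). With both libraries in the wild-type range of their targeted transcript left out, adjusted p was 0.0617 and 0.0515. In the authors' deposited table the adjusted p of tapbp.1 was 0.0537 for focad null and 0.0150 for pdia6 null.

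A second tapasin gene, tapbp.2, was lower in level. It measured 0.441, 0.773 and 0.269 FPKM in wild type, 0.460, 0.702 and 0.131 in focad null and 0.874, 0.587 and 0.908 in pdia6 null, and was not called (log2 differences -0.07 and 0.27, limma adjusted p = 0.929 and 0.677). The ratio of tapbp.1 to tapbp.2 was 18.2, 18.3 and 19.7 in wild type, 3.62, 2.63 and 4.54 in focad null and 1.44, 1.34 and 1.06 in pdia6 null. Of the 10 loading and trimming genes tested, tapbp.1 was the only call in either comparison, and the medians were -0.56 and -0.09. Calr3a, a calreticulin gene, ranged from 62.1 to 267 FPKM in wild type, 36.5 to 144 in focad null and 38.8 to 487 in pdia6 null, and pdia3 from 341 to 1205 over all libraries. The log2 difference of calr3a in pdia6 null was -0.09, or -1.06 with replicate 1 left out, and was not called in either fit. Their highest values fell in the library labelled pdia6 null replicate 1 and wild-type replicate 1 came next for calr3a, the libraries that also held the most hspa5, an ER chaperone gene, at 2359 and 734 FPKM against 8.64 to 199 in the other 7, and the part of this in the loading genes was not tested.

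The inducible proteasome genes psmb8a, psmb9a and psmb13a were lowest by mean in pdia6 null, by different amounts. Psmb10 of the same list was lowest by mean in wild type, at 2.64 FPKM against 17.7 in focad null and 4.26 in pdia6 null. Its pdia6 null libraries measured 8.70, 2.24 and 1.84 FPKM. Psme1 was also lowest by mean in wild type, at 34.25 FPKM against 80.7 and 39.9. Psmb8a (ENSDARG00000001303) measured 16.8, 30.0 and 20.5 FPKM in wild type, 10.1, 31.1 and 4.95 in focad null and 3.34, 1.11 and 1.49 in pdia6 null. All pdia6 null libraries were below all others. In focad null, replicate 2 lay above every wild-type library, and replicates 1 and 3 lay below every one. The wild-type read sum of 2756 was 11.1-fold that of pdia6 null after scaling for depth (95% interval 9.85 to 12.6, counting error only). The log2 difference was -3.01 (SE 0.57) for pdia6 null against wild type and -0.83 (SE 0.57) for focad null, or -1.49 with replicate 2 of that group left out.

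Psmb9a (ENSDARG00000000656) measured 5.07, 7.98 and 4.14 FPKM in wild type, 10.6, 55.4 and 3.21 in focad null and 3.04, 2.34 and 2.24 in pdia6 null. Psmb13a (ENSDARG00000001656), the neighbour of psmb8a, measured 5.91, 12.3 and 6.47 FPKM in wild type, 18.6, 88.9 and 6.58 in focad null and 5.96, 5.16 and 3.46 in pdia6 null. For both genes focad null overlapped wild type and its replicate 2 stood apart at the top, while pdia6 null lay below wild type for psmb9a and overlapped it for psmb13a. The log2 difference of psmb9a was 1.1 (SE 0.78) in focad null, or 0.09 without replicate 2, and -0.89 (SE 0.78) in pdia6 null. That of psmb13a was 1.43 (SE 0.77), or 0.47 without replicate 2, and -0.61 (SE 0.77). RefSeq places psmb13a and psmb8a over each other, so reads of this stretch could be split between them, and the sources used here do not say whether counting used strand.

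The ratios of psmb8a to psmb9a and of psmb8a to psmb13a set wild type apart from both null groups without overlap. The other subunit ratios given here overlapped wild type in focad null, in pdia6 null or in both. Psmb8a, psmb9a and psmb13a were chosen with these contrasts known, so nothing is read from these separations. Psmb8a over psmb13a ran from 2.44 to 3.17 in wild type, 0.350 to 0.752 in focad null and 0.215 to 0.560 in pdia6 null. Psmb8a was 3.31, 3.76 and 4.94 times as high as psmb9a in wild type, 0.958, 0.562 and 1.54 times in focad null and 1.1, 0.473 and 0.663 times in pdia6 null. Psmb13a over psmb9a ran from 1.17 to 1.56 in wild type, 1.61 to 2.05 in focad null and 1.54 to 2.2 in pdia6 null, so that focad null lay above wild type and pdia6 null overlapped it. Against psmb5, the constitutive subunit that the psmb8 product replaces in the inducible proteasome of mammals, psmb8a stood at 0.734, 1.38 and 0.820 times in wild type, 0.472, 1.12 and 0.255 in focad null and 0.0810, 0.0412 and 0.0561 in pdia6 null. Psmb9a over psmb6, which it replaces there, ran from 0.108 to 0.267 in wild type, 0.108 to 0.810 in focad null and 0.0606 to 0.0711 in pdia6 null. Psmb10 over the constitutive psmb7 ran from 0.0671 to 0.0992 in wild type and 0.0806 to 1.905 in focad null. In pdia6 null this ratio ran from 0.0633 to 0.1475, so all groups overlapped for it.

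No other gene of the inducible proteasome was called. Psmb12 measured 7.97 to 15.6 FPKM in wild type, 4.45 to 56.3 in focad null and 3.82 to 7.89 in pdia6 null (limma adjusted p = 0.856 and 0.652). Its log2 difference in focad null was 0.42, or -0.46 with replicate 2 left out. Psme1, a subunit of the PA28 activator, stood at 27.2 to 39.0 FPKM in wild type and reached 164 in focad null replicate 2, with a log2 difference of 0.83, or 0.13 without that library. None of the 14 constitutive core subunits tested was called either, at medians of 0.29 and 0.19. Psma4 ranged from 48.3 to 56.0 FPKM in wild type and psmb4 from 51.0 to 53.1, both with their highest level, 162 and 103.9, in focad null replicate 2, without which the log2 difference of psma4 was -0.19 and not 0.42.

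Replicate 2 of the focad null group was highest of all libraries in b2m, tap1, tap2a, psmb8a, psmb9a and psmb13a, and markers of other cells moved with it. The intestine list, 18 gene rows, summed to 10358 FPKM there, against 1363 and 2388 in the others of its group, 122 to 1120 in wild type and 346 to 2399 in pdia6 null. T and NK cell markers, 19 rows with prf1.3 at 0 throughout, summed to 17.9 FPKM, against 1.98 to 10.9 in the other 8 libraries. Neutrophil markers, 6 rows with lyz at 0 throughout, summed to 11.95 FPKM against 1.13 to 4.39, and B cell markers, 7 rows, to 1.38 against 0.0932 to 1.19. Macrophage markers, 21 rows with mpeg1.1 at 0 throughout, summed to 143 FPKM there, within the 131 to 561 of the others. The part of these cells in the levels of the class I genes was not tested. The list of exocrine pancreas markers summed to 991 FPKM in this library and to 5009 and 2206 in the other focad null libraries, against 329.9 to 1285 in wild type.

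**Figure D4:**
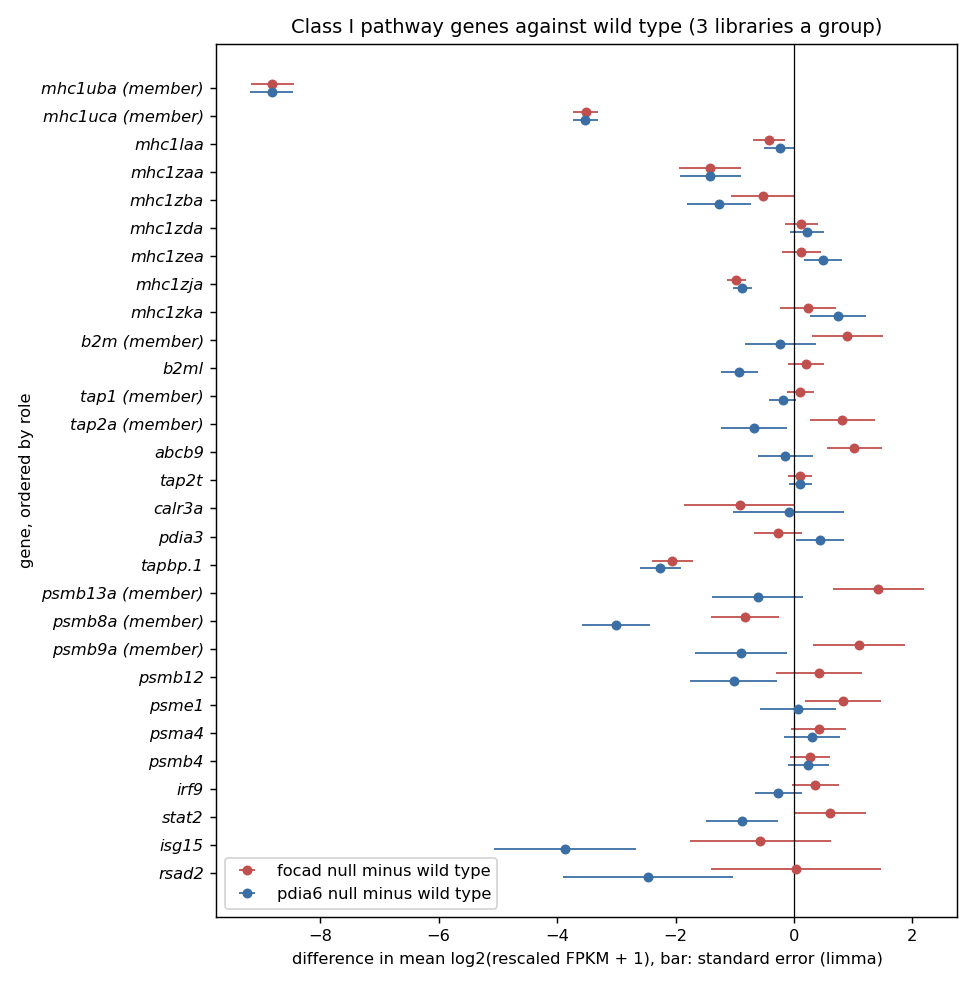
Difference from wild type in mean log2(rescaled FPKM + 1) for the 8 gene rows, marked as members, and for the other named pathway genes, ordered by role, with bars for the limma standard error (3 libraries a group). Mhc1uba at -8.81 and -8.82 lies furthest from 0, followed by isg15 in pdia6 null at -3.87 and mhc1uca at -3.52 and -3.53, with tapbp.1 low in both null groups and psmb8a low in pdia6 null.

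Genes that interferon raises were examined for the same libraries, since class I genes are among its targets. None of the 24 tested was called by limma in any of the 3 comparisons, although 1, 5 and 8 had an unadjusted p below 0.05 in focad null and pdia6 null against wild type and between the nulls. Over all genes 14.7%, 12.5% and 17.9% had such a p. The medians of the log2 difference were 0.28, -0.61 and 0.97. Their summed level was 82.7, 558.5 and 181.5 FPKM in wild type, 138, 332.5 and 182 in focad null and 71.7, 73.4 and 97.1 in pdia6 null. Wild-type replicate 2, the highest in that sum, was also the highest wild-type library for mhc1uba, mhc1uca, b2m, tap2a, psmb8a, psmb9a and psmb13a. Tap1 was highest in wild-type replicate 1, the lowest wild-type library in that sum. The part of interferon in the class I levels was not tested. Isg15, a ubiquitin-like interferon target, measured 5.24, 144.7 and 93.9 FPKM in wild type, 12.7, 34.2 and 54.1 in focad null and 1.52, 0.296 and 7.49 in pdia6 null (log2 differences -0.57 and -3.87, limma adjusted p = 0.888 and 0.218). Without wild-type replicate 1, isg15 passed in pdia6 null (adjusted p = 0.0347).

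Between the null groups, 4 of the 8 rows were separated and b2m, tap1, mhc1uba and mhc1uca overlapped. Tap2a, psmb8a, psmb9a and psmb13a were above every pdia6 null library in each focad null library, and 13.2% of all genes tested were separated in that direction. Their log2 differences were 1.50, 2.18, 1.99 and 2.04, with SE from 0.55 to 0.78, and 0.84, 1.52, 0.98 and 1.08 once focad null replicate 2 was left out. Of the 24 interferon response genes, 15 were separated in the same direction. Of the 16 intestine markers tested, 16 had a higher mean in focad null, with a median log2 difference of 2.97, and 13 were separated. Of 14 exocrine pancreas markers 13 had a higher mean and 6 were separated. Their part in these differences was not tested. None of the 69 pathway genes tested beside the 8 rows was called in this comparison, where 0.609% of all genes were called higher and 0.594% lower in focad null.

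The transcription regulators of class I genes gave no call among 7 tested. Stat2 and irf9, parts of the complex that carries the interferon signal, stood at 12.2 to 77.3 and 7.24 to 16.6 FPKM in wild type. They measured 28.0 to 54.9 and 9.38 to 23.4 in focad null, and at 11.5 to 14.8 and 6.50 to 10.2 in pdia6 null. The medians of the list were 0.61 and -0.07.

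The neighbours of these genes were also examined. In GRCz12tu, a RefSeq build that the authors did not use, the protein-coding genes run in the order tapbp.1, mhc1uka, tapbp.2, mhc1uba, psmb13a, psmb8a, psmb12, psmb9a and tap2a. Whether the groups carry the same haplotype of this stretch was not tested. Reads of a form unlike the reference could go uncounted for any of these genes. Tapbp.2, between the heavy chain genes, was not called. Psmb12 was not called either, although its pdia6 null libraries all lay below wild type. Of 10 flanking genes, 5 on each side, 6 were tested and 0 were called in either comparison. Of all genes tested, 1.56% and 1.23% were called, so a set this small is likely to hold no call and nothing is read from this count. Daxx, beside tapbp.1, stood at 2.76 FPKM by mean in wild type, 1.39 in focad null and 1.73 in pdia6 null, with both null groups below wild type in every library (limma adjusted p = 0.103 and 0.27). Sdha, the last flanking gene, was likewise below wild type in all null libraries, at means of 97.2, 77.3 and 69.4 FPKM (limma adjusted p = 0.509 and 0.383). Hsd17b8, also a flanking gene, went the other way in pdia6 null. All its pdia6 null libraries lay above wild type, at means of 6.55 and 3.03 FPKM (limma adjusted p = 0.106), and its focad null libraries overlapped wild type. Over all genes tested, 9.64% lay below wild type without overlap in focad null and 11.0% in pdia6 null. In pdia6 null, 1283 of the 13290 lay above it without overlap.

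**Figure D5:**
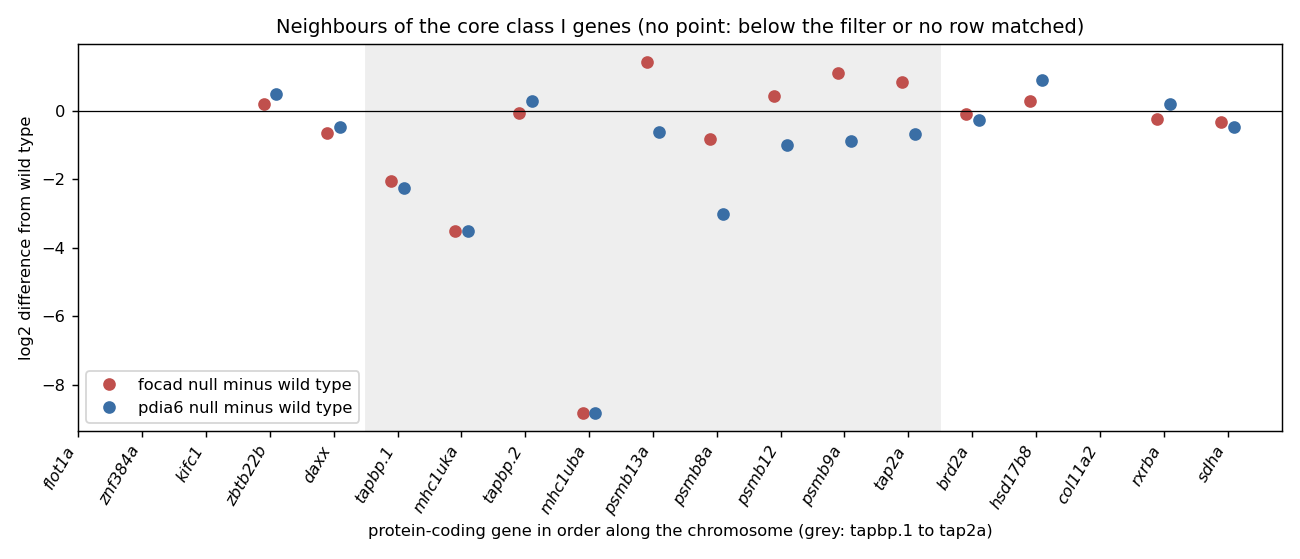
Log2 difference of each null group from wild type for protein-coding genes in their order along the chromosome in RefSeq GRCz12tu, with tapbp.1 to tap2a in grey and no point where a gene was not tested or had no row. The mhc1uka position shows the row also called mhc1uca. Tapbp.1, mhc1uka and mhc1uba lie low for both null groups, tapbp.2 between them near 0, and the 6 flanking genes between -0.66 and 0.89.

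The genes whose level over the 9 libraries was most like that of mhc1uba shared its presence in wild type and near absence elsewhere. By Pearson's r on log2(FPKM + 1) over 9 libraries that fall into these 2 sets, a description only, they were si:ch1073-154p7.1 (0.997), urahb (0.997), mhc1uca (0.997), a gene named only by a clone, ENSDARG00000094110 (0.996), and zgc:194659 (0.995). Urahb, an enzyme gene of uric acid breakdown, stood at 31.0 ± 1.71 FPKM (SD, n = 3) in wild type and ENSDARG00000094110 at 166 ± 7.71. For mhc1zba the most alike were tab3 (0.963), zgc:163143 (0.959), ftr50.2 (0.946), Novel00057 (0.946) and marchf7 (0.942).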

How the data were processed

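RNA was sequenced from zebrafish liver in 9 libraries. Per the labels' protocols, RNA from snap-frozen livers was extracted with Qiagen kits. Bowtie2 2.2.3, TopHat2 2.0.12, HTSeq 0.6.1 and build danRer11 are named per the submitters' processing notes, without roles. The authors deposited FPKM per gene and library. Their tables of each null against wild type hold mean read counts per group, a signal scaled by the authors, and p-values that the authors deposited with their adjusted values. Names came from the name table (29201 of 33716 IDs) and RefSeq GRCz12tu.

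Libraries were brought to a common scale by their median ratio over the 7660 genes that reached 1 FPKM in each of them. The 13290 genes whose mean reached 0.5 FPKM were fitted as log2(FPKM + 1) in limma 3.58.1 under R 4.3.3, using lmFit and eBayes (trend, robust). The fit held the 3 group means of all 9 libraries and left 6 residual degrees of freedom. Two-sided p-values were Benjamini-Hochberg adjusted, with calls at 0.05. The planned design named a count test if counts were deposited, and these are FPKM. Reads were recovered from the FPKM steps, with the step of each gene chosen so that its values were whole. All 164593 values below 1000 reads (100.0%) were whole within 0.01, which follows from that choice and is no separate check. The step of 1192 genes was corrected by the authors' group means. After this 97.45% of genes matched those means within 1%, a match that is partly by construction. For 676 genes the scale came from those means alone. Depth was 46.1 to 54.5 M reads, a count of 0 allows up to 3 reads, and intervals are exact at 95% and cover counting error only. Reads of pairs within a group differed by a chi-square per degree of freedom of 152.0 to 799.5, beyond sampling noise. The script was tested on simulated data. There, in focad null against wild type, the fit recovered 4.2% of 2-fold, 36% of 4-fold, 64.6% of 8-fold and 87.5% of 16-fold changes. A gene that was not called is therefore not shown to be unchanged.

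The members and the 18 gene lists (220 of 263 symbols matched), and all tests, were chosen with earlier results of these data known. Of the genes in the 8 pathway lists that are not members, 88 in all, 82 had a read and 69 were tested. Those named are every gene past the threshold, heavy chains at 1 FPKM or more in a group, the 2 most abundant of each other list, and the 5 genes most like mhc1uba and mhc1zba. Alternatives were a pseudocount of 0.1, no filter or one at 2 FPKM, no rescaling, 6 libraries only and a replicate block. Others were each library left out, limma voom on the reads, and summed symbols. A further alternative, added after seeing the data, left out both libraries in the wild-type range of their targeted transcript.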

Additional observations from a re-analysis of the deposited data

How the results depend on the processing

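Mhc1uba and mhc1uca kept their direction in both comparisons with wild type under every alternative run, and no result changed sign past a threshold. Of all genes, 207 were called in focad null against wild type, with 98 at a filter of 2 FPKM, 121 with the replicate block, 96 with limma voom on recovered reads and 89 to 486 with a library left out. In pdia6 null against wild type 163 were called, with 91, 82, 78 and 73 to 250 in the same order. Between the nulls 160 were called, with 254 at a pseudocount of 0.1, 82 with the block and 73 with voom. The number was 60 to 645 with a library left out and 105 without both libraries in the wild-type range of their targeted transcript. Of the pathway genes beside the members, 2 were called in focad null against wild type, and 1 at 2 FPKM, 0 in the 6 libraries of the comparison, 1 with the block, 1 without both libraries, 0 with voom and 0 to 2 with a library left out. In pdia6 null against wild type 2 were called, and 1 at a pseudocount of 0.1, 1 at 2 FPKM, 1 in the 6 libraries, 1 with the block, 0 without both libraries, 0 with voom and 0 to 2 with a library left out. Between the nulls 0 were called, and 1, pkz, in the 6 libraries, with 0 to 1 when a library was left out. The cause was not tested. Replicate numbers are not shown to pair samples: deviations of same-numbered libraries correlated from -0.19 to 0.29, and with the block mhc1zja lost its call in both comparisons (adjusted p = 0.0738 and 0.108) while tapbp.1 kept it. At the depth recovered, a gene without a read in a group is bounded by 3 reads and is not shown to be absent. FPKM as deposited moved the median of all genes by under 0.1 on the log2 scale.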

Other observations

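MHC class II genes, which present peptides taken up from outside the cell, stood highest in the same library as the class I machinery. Their 19 gene rows, of which 4 were at 0 in all libraries, summed to 1498 FPKM in the library labelled focad null replicate 2, against 252 and 106.9 in the others of that group, 117.5 to 256 in wild type and 113 to 135 in pdia6 null. Of the 8 tested, 0 were called by limma in any comparison, with 2, 2 and 4 at an unadjusted p below 0.05, beside 14.7%, 12.5% and 17.9% of all genes. All 8 had a lower mean in pdia6 null than in wild type, at a median log2 difference of -0.74, and 3 of them lay below it without overlap, as did 11.0% of all genes.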
